A study of Mus musculus with 6 samples.

Results

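Aminoacyl-tRNA synthetases and the genes of the amino acid response were examined in megakaryocyte-erythroid progenitors (MEP) from mice that lack T-bet and from wild-type mice. The genes came from a list of 38: 20 cytosolic synthetases, 3 kinases of the translation factor eIF2α, and 15 regulators, enzymes and transporters of the ATF4 response. A member counted where the array's annotation gave its name as the only symbol of a probe set, and each gene was read from its probe set of highest mean. That held for 35 of the 38, among 22180 genes in all.

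The arrays measured RNA of MEP sorted from fresh bone marrow of C57BL/6 mice after antibody staining, 3 arrays of T-bet knockout mice and 3 of wild-type mice. T-bet is the transcription factor encoded by Tbx21. The labels give neither the age of the mice nor how the allele was made, and describe each array as a separate mouse. Values are log2 signals, SD is over the 3 arrays of a group, and differences are knockout minus wild type.

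A synthetase joins an amino acid to its tRNA and so supplies the ribosome with substrate. When an amino acid runs short, uncharged tRNA activates the kinase GCN2, which phosphorylates eIF2α. General translation then falls while the transcription factor ATF4 is made, and ATF4 induces synthetases, amino acid transporters and biosynthetic enzymes. In red cell precursors another eIF2α kinase, HRI, matches globin synthesis to the supply of heme.

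Tbx21 read 6.41, 6.60 and 6.46 in the knockout arrays, against 6.54, 6.62 and 6.60 in wild type. The groups overlapped, and the exons behind this probe set are unknown here, so it gave no check of the genotype. Xist and the Y-linked gene Eif2s3y both gave a signal above 8 in knockout replicates 1 and 2 and wild-type replicate 1. Eif2s3y alone did so in knockout replicate 3 and wild-type replicate 3, and Xist alone in wild-type replicate 2. Whether every array holds a single mouse is therefore unknown, and p-values measure the spread between these arrays. The MEP label was set against marker lists. Of 10 erythroid markers measured 0 lay in the dimmest 30% of probe sets, nor did any of 8 megakaryocyte markers. Gata1 and Klf1, 2 erythroid transcription factor genes, lay in the brightest 20% of genes. The median percentile of signal was 95.3 for erythroid, 57.9 for megakaryocyte and 58.6 for B cell markers, of which 1 of 10 was dim. Signal level therefore did not set megakaryocyte markers apart from B cell markers.

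No synthetase or amino acid gene passed the test between knockout and wild-type progenitors. By limma's adjusted p of 0.05, 0 of the 35 were called, where 0 of all 41345 probe sets were (0.0%). At an unadjusted p under 0.05 there were also 0 higher and 0 lower members, against a background of 1.44% of genes higher and 1.7% lower (3.13% in all). The median difference of the 35 was -0.02, with 14 above and 21 below 0, beside -0.004 over all genes. The largest differences were 0.32 for Ddit3 and 0.13 for Ddit4 on the positive side, and -0.13 for Mthfd2 and -0.12 for Psph on the negative side. Leaving out knockout replicate 1 turned the sign of the median to 0.03, and a block for the sex-linked signal turned it to 0.01. In that block wild-type replicate 2 was the only array with Xist alone, so it added nothing to the difference. The 95% interval of limma stayed within 1.5-fold in either direction for 34 of the 35 members (97.1%), against 85.9% of all genes and 99.0% of the brightest 20%.

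**Figure D1:**
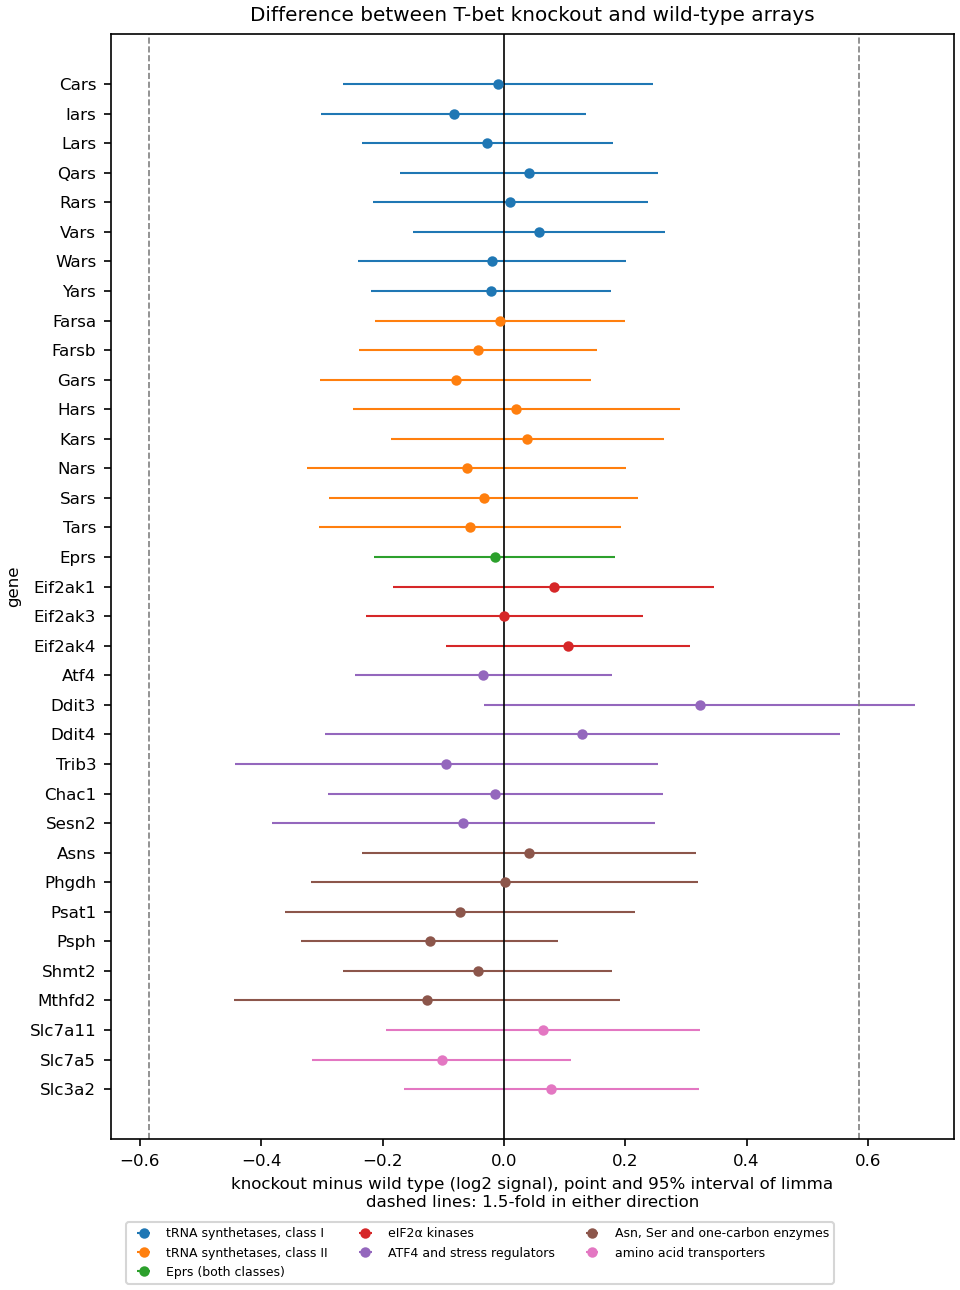
Difference between T-bet knockout and wild-type arrays for the 35 genes (horizontal axis, log2 signal; point, limma estimate; bar, 95% interval; dashed lines, 1.5-fold in either direction). Every interval holds 0, and the interval of Ddit3 alone passes a dashed line.

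Part of the list carries the letters of the ATF4 element near the start of its transcripts. ATF4 with a C/EBP partner binds a composite element whose core was searched here as TGATGNAA on both strands, over the 250 bases before and 50 after each transcript start (RefSeq promoters, build GRCm38.p6). A promoter was held for 29 of the 38 genes and was not used here for Cars, Hars, Lars, Mars, Nars, Rars, Vars, Wars and Slc7a5. The letters were found in 9 of the 29 genes (31.0%), against 1219 of 27025 genes with a promoter (4.51%) and 3.97% of single promoters. They stood in 5 of 12 synthetase genes and 4 of 17 others. The list was drawn up around the ATF4 response, so its share beside that of all genes is not an independent comparison. Of 83 genes in the further pathway lists with a promoter 11 had the letters (13.3%). Among these 83 were 16 other ATF4 response genes, of which 7 had them (43.8%). A match describes these letters in this window and is not a site.

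The windows below show the match in 4 synthetase genes, which load isoleucine, tyrosine, glycine and threonine, on the strand of the gene. Capitals mark the 8 letters of the motif, read directly in Yars and as its reverse complement in the others.
Iars, chr13:49682127-49682154, plus strand, from base 8 of the transcript: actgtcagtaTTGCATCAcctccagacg
Yars, chr4:129189896-129189923, plus strand, from base 4 of the transcript: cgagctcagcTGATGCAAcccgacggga
Gars, chr6:55037961-55037988, plus strand, from 30 bases before the start: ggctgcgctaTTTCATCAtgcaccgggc
Tars, chr15:11399656-11399683, minus strand, from 15 bases before the start: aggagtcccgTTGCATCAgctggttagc

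Among the response genes matches are shown for Asns, asparagine synthetase, and for Chac1, an enzyme that breaks down glutathione. They are also shown for Trib3, a pseudokinase that holds back ATF4, and for Slc7a11, the cystine transporter. Slc7a11 had a match in each orientation, 66 and 47 bases before the start. Capitals again mark the motif.
Asns, chr6:7693215-7693242, minus strand, from 23 bases before the start: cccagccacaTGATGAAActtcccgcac
Chac1, chr2:119351039-119351066, plus strand, from 193 bases before the start: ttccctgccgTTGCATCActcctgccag
Trib3, chr2:152344029-152344056, minus strand, from base 15 of the transcript: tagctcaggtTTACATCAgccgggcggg
Slc7a11, chr3:50443662-50443689, minus strand: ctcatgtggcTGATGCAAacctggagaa
Slc7a11, chr3:50443643-50443670, minus strand: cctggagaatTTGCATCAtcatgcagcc

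The 8 members with a match and a value of their own had differences from -0.09 for Trib3 to 0.06 for Slc7a11, with a median of -0.04. The 19 measured members with a promoter and no match ran from -0.13 to 0.32, with a median of -0.01. In both sets 0 members had an unadjusted p under 0.05.

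The 17 measured synthetases gave bright and steady signals, with means over the 6 arrays between 8.84 and 11.46. Differences ran from -0.08 to 0.06, 12 below and 5 above 0, and the groups overlapped for every one of the 17. The widest bound was that of Nars, whose interval reached 1.25-fold in one direction. The within-group SD had a median of 0.07 over the synthetases, against 0.14 over all genes and 0.09 over the brightest 20%.

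Class I synthetases share a Rossmann fold in the catalytic domain. Iars, the isoleucine enzyme, read 11.47, 11.37 and 11.41 in knockout arrays, against 11.52, 11.57 and 11.41 in wild-type arrays. The means differed by -0.08 (SE 0.09), with the lowest wild-type array inside the knockout range. Vars, the valine enzyme, read 10.10, 10.16 and 10.22 in knockout arrays and 10.08, 10.15 and 10.07 in wild-type arrays, differing by 0.06 (SE 0.09). Qars, the glutamine enzyme, read 10.81, 10.95 and 10.94 in knockout arrays and 10.86, 10.83 and 10.88 in wild-type arrays, differing by 0.04 (SE 0.09). In both genes knockout replicates 2 and 3 lay above every wild-type array and knockout replicate 1 did not. The other class I enzymes were Cars for cysteine, Lars for leucine, Rars for arginine, Wars for tryptophan and Yars for tyrosine, and their differences lay between -0.03 and 0.01.

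Class II synthetases are built around an antiparallel sheet. Gars, the glycine enzyme, read 11.28, 11.31 and 11.30 in knockout arrays, against 11.31, 11.50 and 11.33 in wild-type arrays. The difference of -0.08 (SE 0.09) was -0.02 without wild-type replicate 2, the one high array. Nars, the asparagine enzyme, read 11.05, 11.17 and 11.21 in knockout arrays and 11.04, 11.31 and 11.27 in wild-type arrays, differing by -0.06 (SE 0.11). Tars, the threonine enzyme, read 9.93, 10.16 and 10.02 in knockout arrays and 9.99, 10.13 and 10.16 in wild-type arrays, differing by -0.06 (SE 0.10). In both, the arrays numbered 1 were the lowest of their group, and the Tars difference was -0.001 without knockout replicate 1 and -0.12 without knockout replicate 2. Farsa and Farsb, the subunits of the phenylalanine enzyme, differed by -0.01 and -0.04. Hars for histidine, Kars for lysine and Sars for serine differed by 0.02, 0.04 and -0.03.

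Eprs, one protein with a class I glutamate enzyme and a class II proline enzyme, read 11.03, 11.12 and 11.10 in knockout arrays and 11.11, 11.11 and 11.07 in wild-type arrays. It differed by -0.02 (SE 0.08), an amount below the spread of either group. Eprs, Iars, Lars, Qars, Rars and Kars belong to the multisynthetase complex, which holds a set of synthetases on scaffold proteins. Their median difference was -0.002, against -0.02 for the 11 synthetases outside it. The scaffold genes Aimp1 and Eef1e1 differed by -0.02 and 0.03 (SE 0.09 and 0.11), and another scaffold gene, Aimp2, had no probe set of its own.

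Of the listed genes 3 were not read by name. Mars, the methionine enzyme, is annotated as Mars1 under the same gene ID. That probe set read 10.03, 10.23 and 10.20 in knockout arrays and 10.11, 10.26 and 10.21 in wild-type arrays, differing by -0.04 (SE 0.10). Aars, the alanine enzyme, shares its probe set with Exosc6, an exosome subunit gene, so its signal cannot be assigned to either gene. The shared probe set read 9.34, 9.38 and 9.41 in knockout arrays and 9.34, 9.42 and 9.30 in wild-type arrays. Dars, the aspartate enzyme, was not analysed here.

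**Figure D2:**
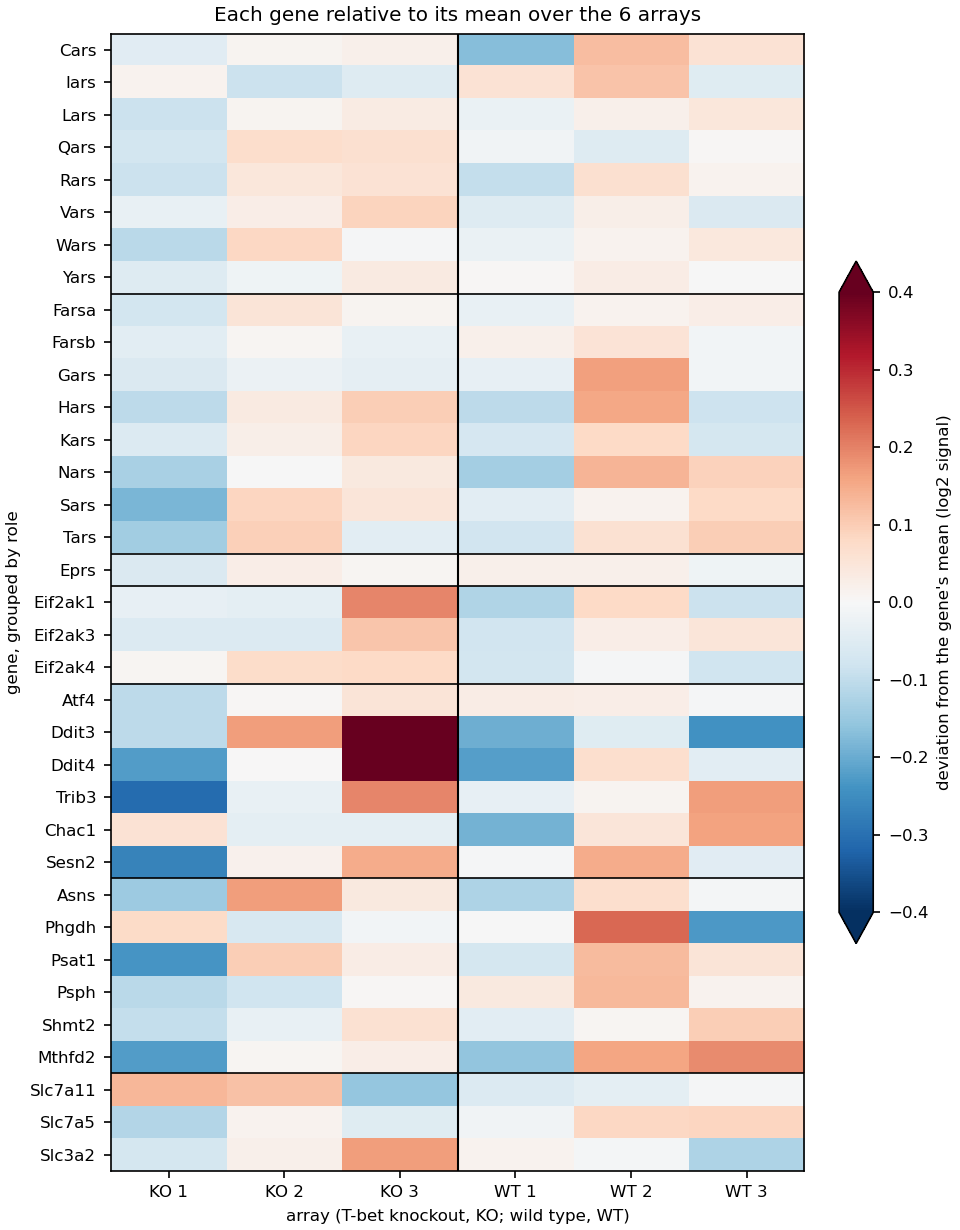
Log2 signal of each of the 35 genes in each array (columns, knockout left of the line and wild type right of it) as a deviation from that gene's mean over the 6 arrays, with rows grouped by role. Knockout replicate 1 is the lowest array for 21 of the 35 genes, and the darkest red cells are Ddit3 and Ddit4 in knockout replicate 3.

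The main pattern among members lay between arrays of the same group. Knockout replicate 1 gave the lowest of the 6 values for 21 of the 35 members (60.0%), 11 synthetases and 10 others, and wild-type replicates 1 and 3 for 6 each. In order of replicate number, the synthetases deviated on average by -0.08, 0.03 and 0.03 in knockout, against -0.05, 0.06 and 0.01 in wild type. The 4436 genes of the brightest 20% gave -0.08, 0.03 and 0.05 in knockout, against -0.05, 0.03 and 0.004 in wild type, so bright genes in general moved with the synthetases. Among those genes knockout replicate 1 was the lowest array for 44.8%, and among all 22180 genes for 22.3%. The 18 members other than synthetases had a median percentile of signal of 74.3, below the brightest 20%. After a further quantile normalization, knockout replicate 1 was lowest for 3 synthetases, against 11 before it, and for 10 of the other members both before and after it. It was lowest for 1156 of the 4436 bright genes after it, against 1988 before, and for 4902 of all 22180 genes, against 4950 before. The synthetases then deviated by -0.03, 0.01 and -0.004 in knockout, against -0.02, 0.03 and 0.02 in wild type. The part of array scaling in the differences of single members was not tested beyond these fits.

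**Figure D3:**
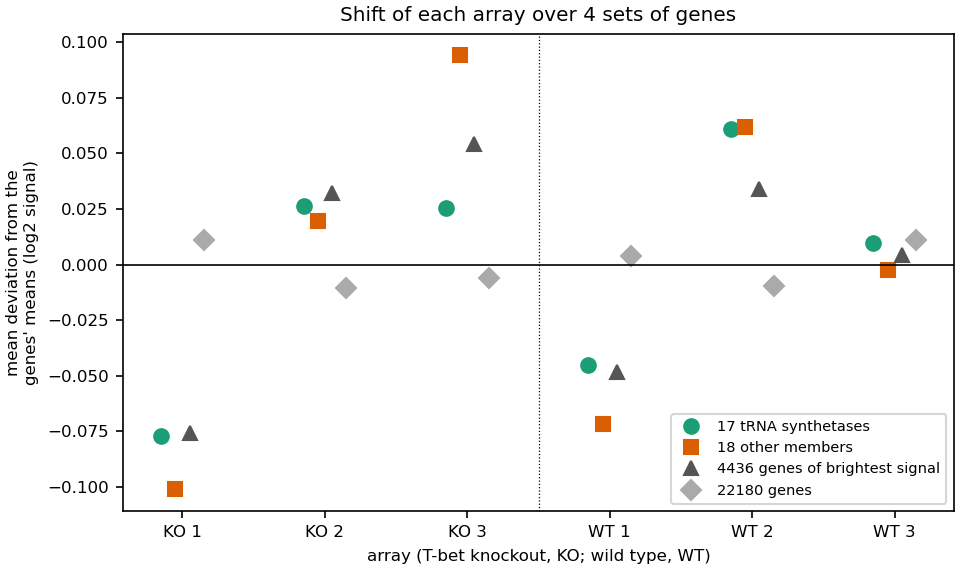
Mean deviation from the genes' own means (log2 signal) in each array, for 17 synthetases, 18 other members, the 4436 genes of brightest signal and all 22180 genes; points are offset sideways for legibility. Replicate 1 of both groups lies below 0 for both member sets and for the bright genes.

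The 3 eIF2α kinase genes among the members had differences at or above 0, and knockout replicate 3 was the highest array for all 3. Another eIF2α kinase gene, Eif2ak2, was measured in a further list and differed by 0.11 (SE 0.10). Eif2ak4, which encodes GCN2, the sensor of uncharged tRNA, read 8.47, 8.54 and 8.54 in knockout arrays, against 8.39, 8.46 and 8.39 in wild-type arrays. The groups did not overlap, by a gap smaller than either group's SD of 0.04, and the difference was 0.11 (SE 0.08, 1.08-fold, 95% interval 0.936 to 1.24). By exact permutation p was 0.1, the smallest that 3 arrays against 3 allow, and limma's adjusted p was 1.00. It was the single member of 35 whose knockout arrays all lay above the wild-type arrays, against 3.52% of all genes, and the separation was lost when each array was centred on its median.

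Eif2ak1, which encodes the heme-regulated kinase HRI, read 10.38, 10.37 and 10.60 in knockout arrays and 10.29, 10.49 and 10.32 in wild-type arrays. The difference of 0.08 (SE 0.11) came with knockout replicate 3 above all other arrays, and it was 0.01 without that array. A second probe set, annotated to Aimp2 and Eif2ak1 together, differed by -0.003. Eif2ak3, which encodes PERK, the kinase that senses unfolded protein in the endoplasmic reticulum, read 8.25, 8.25 and 8.42 in knockout arrays and 8.23, 8.33 and 8.36 in wild-type arrays. The means differed by 0.001 (SE 0.10), and the ranges overlapped.

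Atf4, the central transcription factor of the response, read 9.60, 9.71 and 9.76 in knockout arrays, against 9.73, 9.73 and 9.70 in wild-type arrays. The difference was -0.03 (SE 0.09, 95% interval 0.844 to 1.13 as a fold), with the wild-type arrays inside the knockout range. ATF4 protein is set mainly by translation, which the arrays do not measure.

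Ddit3, which encodes CHOP, a transcription factor induced by ATF4 under stress, had the largest difference of the list. It read 7.943, 8.214 and 8.467 in knockout arrays, against 7.852, 7.998 and 7.805 in wild-type arrays. Knockout replicates 2 and 3 lay above all wild-type arrays, and knockout replicate 1 lay below wild-type replicate 2. The means were 8.21 ± 0.26 in knockout and 7.88 ± 0.10 in wild type (SD, 3 arrays each), a difference of 0.32 (SE 0.15), or 1.25-fold with a 95% interval from 0.978 to 1.60. It missed the threshold, with limma's unadjusted p at 0.0686 and adjusted p at 1.00, and an exact permutation p of 0.2.

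The size of the Ddit3 difference rested on which arrays were used. It was 0.19 without knockout replicate 3 and 0.46 without knockout replicate 1, where limma's unadjusted p was 0.0125 and adjusted p 0.672. Within the arrays that carried both Xist and Y-linked signal the difference was 0.23, and within those of Y-linked signal alone, 1 array against 1, it was 0.66. Knockout replicate 3 also had the highest B cell marker signal of the 6 arrays. The summed linear signal of 10 B cell markers was 1613, 1193 and 2101 in knockout arrays, against 1391, 968 and 1470 in the wild-type arrays. Granulocyte and monocyte markers summed to 770, 705 and 942 in knockout arrays, against 758, 739 and 857 in wild-type arrays. Erythroid markers summed to 32295, 33722 and 33759 in knockout arrays, against 31922, 33289 and 32675 in wild-type arrays. Knockout replicate 3 was the highest array for these 3 lists, as it was for the sum over all 22180 genes. For megakaryocyte, macrophage, and T and NK cell markers the highest array was wild-type replicate 3, at 1523, 1020 and 1385. Knockout replicate 3 gave 1418, 912 and 1117 for them. In a sorted bulk sample, more cells of a type and more RNA per cell cannot be told apart, and the part of any of these cells in the Ddit3 value was not tested.

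Ddit4, which encodes REDD1, an inhibitor of mTORC1, had the same high array. It read 6.86, 7.08 and 7.50 in knockout arrays, against 6.86, 7.15 and 7.04 in wild-type arrays. The difference of 0.13 (SE 0.18) was -0.05 without knockout replicate 3. Trib3 read 6.02, 6.30 and 6.53 in knockout arrays and 6.30, 6.34 and 6.50 in wild-type arrays, differing by -0.09 (SE 0.15), and knockout replicate 1 was the low array. Chac1 and Sesn2, a leucine sensor that restrains mTORC1, differed by -0.01 (SE 0.12) and -0.07 (SE 0.13). Within groups the SD had a median of 0.18 over these 6 stress regulators, from 0.06 for Atf4 to 0.25 for Ddit4, beside 0.07 over the synthetases.

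**Figure D4:**
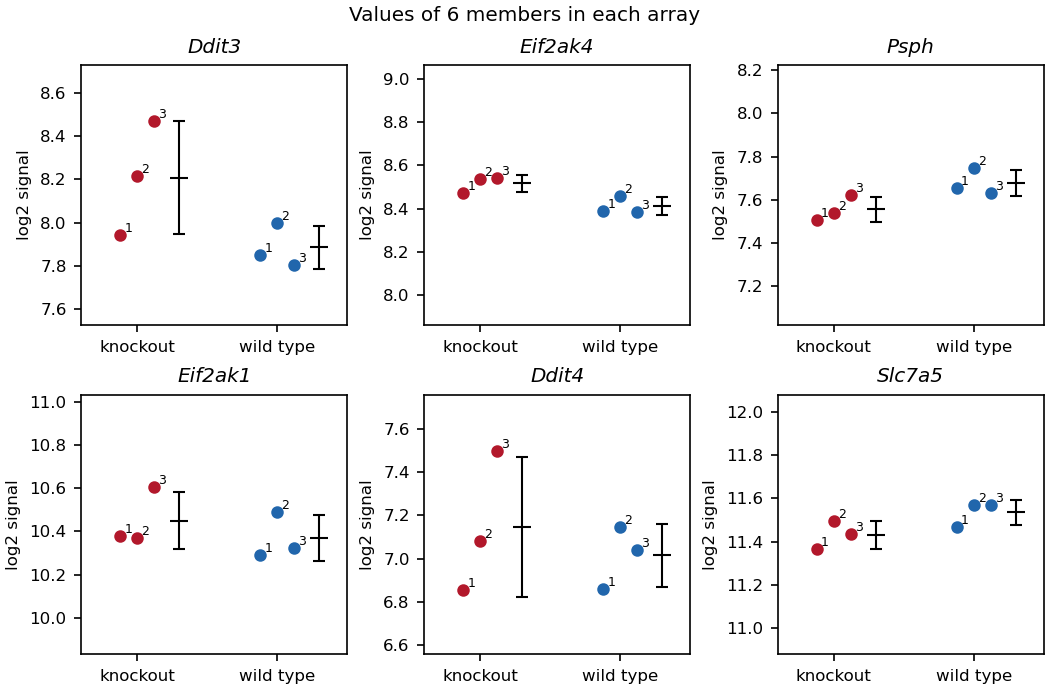
Log2 signal of Ddit3, Eif2ak4, Psph, Eif2ak1, Ddit4 and Slc7a5 in each array (points, numbered by replicate; knockout left, wild type right; bars, mean and SD over 3 arrays; each panel spans the same range of log2 signal). Knockout replicate 3 is the highest array for Ddit3, Eif2ak4, Eif2ak1 and Ddit4, and the groups of Eif2ak4 and Psph do not overlap.

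Enzymes that make serine, asparagine and one-carbon units had small differences, 4 of 6 below 0. Psph, the phosphatase of the last step of serine synthesis, read 7.51, 7.54 and 7.62 in knockout arrays, against 7.66, 7.75 and 7.63 in wild-type arrays. It was the single member whose knockout arrays all lay below the wild-type arrays, against 5.18% of genes and 8.7% of genes in either direction. The difference was -0.12 (SE 0.09, 0.919-fold, 95% interval 0.793 to 1.06), with an exact permutation p of 0.1 and limma's adjusted p at 1.00. Centring each array on its median ended this separation as well, leaving 0 members in either direction.

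Phgdh and Psat1 catalyse the earlier steps of the serine pathway. Psat1 read 8.729, 9.063 and 8.996 in knockout arrays and 8.894, 9.091 and 9.018 in wild-type arrays, differing by -0.07 (SE 0.12), and knockout replicate 1 was the low array. Phgdh differed by 0.001 (SE 0.13). Mthfd2, a mitochondrial folate enzyme, read 8.25, 8.49 and 8.51 in knockout arrays and 8.32, 8.64 and 8.67 in wild-type arrays. Its difference of -0.13 (SE 0.13) was no larger than its SE, and replicate 1 was the lowest array in both groups. It was -0.05 when knockout replicate 1 was left out. Leaving out wild-type replicate 1, 2 or 3 gave -0.24, -0.08 and -0.06 in that order. Shmt2, which moves the one-carbon unit of serine to folate in mitochondria, differed by -0.04 (SE 0.09).

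Asns, among the best known targets of ATF4, read 10.95, 11.27 and 11.14 in knockout arrays and 10.98, 11.17 and 11.09 in wild-type arrays. The difference was 0.04 (SE 0.12, 95% interval 0.850 to 1.24 as a fold). Knockout replicate 1 and wild-type replicate 1 were the low arrays, so the spread within each group exceeded the difference between them.

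Of the 3 transporters 0 passed the test. Slc7a5 and Slc3a2 form the light and heavy chain of the transporter LAT1, which brings in large neutral amino acids. Slc7a5 read 11.37, 11.50 and 11.43 in knockout arrays, against 11.47, 11.57 and 11.57 in wild-type arrays, differing by -0.10 (SE 0.09). Slc3a2 read 10.71, 10.80 and 10.94 in knockout arrays, against 10.79, 10.77 and 10.65 in wild-type arrays, differing by 0.08 (SE 0.10). The groups overlapped in both genes, and the Slc3a2 difference was 0.01 when knockout replicate 3 was left out, 0.04 when wild-type replicate 3 was, and 0.13 when knockout replicate 1 was. Slc7a11, whose protein pairs with that of Slc3a2 to take up cystine, was the single member in the dimmest 30% of probe sets, where a difference in signal can understate one in RNA. It read 4.70, 4.69 and 4.42 in knockout arrays and 4.51, 4.53 and 4.56 in wild-type arrays (difference 0.06, SE 0.11), and its other probe set differed by -0.08.

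In 7 further lists of the pathway 0 genes were called at the adjusted threshold and 0 had an unadjusted p under 0.05. Mitochondrial synthetases, 16 of 17 measured, had a median of 0.001, with the alanine enzyme gene Aars2 at -0.13 (SE 0.09) and the valine enzyme gene Vars2 at -0.11 (SE 0.09). Both had knockout arrays below all wild-type arrays, 2 of 16 genes (12.5%), against 5.18% of all genes lower and 8.7% in either direction. Genes of eIF2, its exchange factor eIF2B, its phosphatases and related regulators such as Eif2ak2 had a median of 0.0003, 13 of 16 measured. Among them Eif2b2 stood at 0.13 and Impact, an inhibitor of GCN2, at -0.12.

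Other ATF4 response genes, 17 of 19 measured, had a median of -0.01, with the lipoprotein receptor gene Vldlr at -0.22 (SE 0.11) and the cystathionine enzyme gene Cbs at -0.18 (SE 0.09). Cbs was the single gene of the 17 whose groups did not overlap (5.88%, against 8.7% of all genes). Other amino acid transporters, 14 of 15 measured, had a median of -0.02, with Slc7a2 at -0.25 (SE 0.19) and Slc3a1 at 0.12 (SE 0.11). Slc38a1 and Slc38a2, both neutral amino acid transporters, stood at -0.06 and -0.04 with knockout arrays below all wild-type arrays. The gaps were 0.017 and 0.004, and these 2 of 14 genes (14.3%) stand against 5.18% of all genes lower and 8.7% in either direction. Serine and one-carbon enzymes outside the list, 8 of 10 measured, had a median of 0.03, with Mthfd1l at 0.11 and Amt at -0.11. Genes of amino acid sensing at mTORC1, all 24 measured, had a median of 0.01, with Nprl2 at 0.15 and Lamtor5 at -0.15.

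Marker lists moved between arrays as follows, as ranges of summed linear signal. Erythroid markers spanned 32295 to 33759 in knockout arrays and 31922 to 33289 in wild-type arrays, and megakaryocyte markers 1139 to 1418 in knockout arrays and 1295 to 1523 in wild-type arrays. Of 8 megakaryocyte markers 7 had differences below 0, with a median of -0.12. Pf4, a platelet chemokine gene, stood at -0.48 (SE 0.21), further from 0 than any of the 35 members, and had a limma unadjusted p of 0.0633. Itga2b, an integrin gene, stood at -0.34 (SE 0.14) with an unadjusted p of 0.0449, where 1.7% of genes were lower at that level, and an adjusted p of 1.00. Granulocyte and monocyte markers spanned 705 to 942 in knockout arrays and 739 to 857 in wild-type arrays, macrophage markers 812 to 979 in knockout and 923 to 1020 in wild type, and T and NK cell markers 1071 to 1204 in knockout and 1152 to 1385 in wild type. The ranges overlapped in each of these lists. Between arrays of the same number, the knockout sum was the higher in 3 of 3 pairs for erythroid and for B cell markers, and the lower in 3 of 3 pairs for megakaryocyte and for T and NK cell markers. Gene by gene, however, 6 of the 10 T and NK cell markers had differences above 0, with a median of 0.04. Of 10 B cell markers 7 lay above 0, with a median of 0.25, and 0 had a limma unadjusted p under 0.05. Among them Ighm stood at 0.64 (SE 0.42), further from 0 than Pf4. Of 10 erythroid markers 8 lay above 0. In 2 of these, Sptb and Ank1, knockout arrays all lay above wild-type arrays, against 3.52% of genes. Of 12 granulocyte and monocyte markers 6 lay above 0, with S100a8 at 0.39 (SE 0.24), and of 9 macrophage markers 2 did. No test was made of the summed signals. In the dimmest 30% of probe sets lay 1 of 10 B cell, 4 of 12 granulocyte and monocyte, 2 of 9 macrophage and 4 of 10 T and NK cell markers. Their part in the members' values was not tested.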

How the data were processed

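The deposited values are log2 signals of 41345 probe sets on 6 arrays. The submitters' processing notes name Affymetrix Expression Console, version 1.4.1.46. No source used here gives the background correction, normalization or build. The base of the log was inferred from the maximum, 14.2, above the natural log of a 16-bit maximum, 11.1. No scanner intensities were used, so detection is unknown, and 3 arrays per group limit precision. The annotation table gave 1 symbol for 23521 probe sets, several for 1814 and none for 16010.

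Arrays were used as deposited and compared with limma 3.58.1 in R 4.3.3, adjusting p-values by Benjamini-Hochberg across every probe set. Unnamed probe sets, which may include controls, stayed in. SE and 95% intervals are limma's, and permutation tests were exact and 2-sided. The method was tested on simulated data with noise drawn independently for each probe set and array. That test does not cover shifts shared by many genes of an array. Members, lists and tests were chosen with earlier results of these data known. Values in every array are given for the 3 members of smallest p in each role, for Eif2ak1, Atf4, Ddit3, Asns and Aars, and for members whose groups do not overlap, and further lists name their 2 genes of smallest p. Alternatives were 2 scalings, array weights, limma-trend, 2 filters, the mean over probe sets, 2 blocks and leaving out each array.

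Replicate numbers recur in both groups without a stated meaning. Deviations from the group means correlated between same-numbered arrays at 0.285, 0.116 and 0.115 over genes, against 0.212, 0.0569 and 0.140 when every probe set was used. Over genes each correlation passed the criterion of 0.1. So did those over genes outside the dimmest 30% of probe sets, at 0.396, 0.211 and 0.183, a set with every member but Slc7a11. Over every probe set the correlation of the arrays numbered 2 did not pass, so these sets together do not settle whether arrays were paired. The main fit and the permutation tests are unpaired, and the replicate block is an alternative. A planned search for synthetase signatures in proteins was not run. The motif window of 1 gene is not reported here.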

Additional observations from a re-analysis of the deposited data

How the results depend on the processing

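Over 15 alternatives 480 of 524 recomputed differences of members kept their sign, and 0 passed the adjusted threshold (smallest limma adjusted p 0.672). The replicate block changed no call among members and left 0 probe sets called and 0 members at an unadjusted p under 0.05. The number of probe sets called was 1 with centred arrays, 1 with array weights, and 0 to 2 when an array was left out (2 without knockout replicate 3). Members higher at an unadjusted p under 0.05 numbered 1 with array weights and 0 to 1 when an array was left out, in each case Ddit3. Over all genes 2.03% were higher at that level with array weights and 1.57% without knockout replicate 1, against 2.86% for 1 of 35 members. Members whose groups did not overlap numbered 0 higher and 0 lower with centred arrays and 4 lower after quantile normalization (11.4%, against 6.83% of all genes). They numbered 1 to 5 higher (5, or 14.3%, without knockout replicate 1 and without wild-type replicate 2, against 12.5% and 7.43% of all genes) and 1 to 6 lower (6, or 17.1%, without wild-type replicate 1, against 10.6% of all genes) when an array was left out. A group of fewer arrays separates more easily by construction.

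The sign of the difference turned in at least 1 alternative for 19 of the 35 members. Among them was Ddit4, at 0.13 in the main fit and named above among the largest differences. In the sex-linked block wild-type replicate 2 adds nothing to the difference. With that block the members that turned were Cars (0.070), Farsa (0.0048), Nars (0.017), Chac1 (0.027) and Sesn2 (0.014). With array weights they were Wars (0.017), Farsa (0.016), Sars (0.0092), Eprs (0.0033), Eif2ak3 (-0.023) and Phgdh (-0.023), and after quantile normalization Eif2ak3 (-0.023) and Phgdh (-0.026). Slc7a11 turned to -0.0073 as the mean of its probe sets. Leaving out 1 array gave ranges across 0 for Cars (-0.096 to 0.050), Lars (-0.051 to 0.0084), Rars (-0.034 to 0.056), Wars (-0.066 to 0.030), Farsa (-0.035 to 0.028) and Hars (-0.027 to 0.104). It did so too for Sars (-0.084 to 0.050), Eprs (-0.033 to 0.010), Eif2ak3 (-0.055 to 0.029), Atf4 (-0.068 to 0.011), Ddit4 (-0.046 to 0.273) and Trib3 (-0.216 to 0.035). The others were Chac1 (-0.111 to 0.063), Sesn2 (-0.158 to 0.049), Asns (-0.033 to 0.125), Phgdh (-0.113 to 0.116) and Psat1 (-0.139 to 0.028). The cause of these turns was not tested. Counting Mars1 as a member, added after the data were seen, left 0 members at an unadjusted p under 0.05.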
